A study of Mus musculus with 9 samples.

Results

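A group of 9 genes of xenobiotic metabolism was examined as a set: the Ah receptor gene Ahr and its repressor gene Ahrr, the Cyp1 enzymes Cyp1a1, Cyp1a2 and Cyp1b1, the Cyp3a enzymes Cyp3a11, Cyp3a13 and Cyp3a25, and Por. Every probe set whose platform annotation gave 1 symbol equal to a listed gene was taken. That gave 11 probe sets for 8 of the 9 genes, out of 18193 genes measured, and no probe set naming Por was in the annotation used here. Where a gene had several probe sets, the one with the highest mean over all 9 arrays stood for the gene, and the others are given beside it.

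The study profiled 5 hepatocellular carcinomas and 4 normal livers of mice, with 1 Affymetrix Mouse Genome 430 2.0 array per sample, to describe genome-wide expression in the tumours. The tumours were taken from mice named triple knockout (TKO) in the titles, with the listed genotype RbΔ/Δ; p130Δ/Δ; p107+/-, so that 1 copy of p107 was left. Those mice had been given Ad-Cre, an adenovirus carrying Cre recombinase, into the spleen 4 months before dissection. The livers were from wild type adult mice without tumours. Genotype, virus and tumour state therefore differed together between the groups, and the sources used here give neither the age nor the sex of the mice. Trizol extraction and 2 rounds of amplification were used for both groups. The labels do not say whether the samples of a group are from separate animals, and the p-values therefore cover only the spread between these samples, which may be technical. Values are RMA expression on the log2 scale, so that a difference of 1 is a 2-fold change, and differences are tumour minus liver.

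The Ah receptor is a transcription factor that waits in the cytoplasm in a complex with the chaperone Hsp90 until it binds a ligand, such as a dioxin, a polycyclic hydrocarbon or a breakdown product of tryptophan. It then enters the nucleus, pairs with Arnt and binds short DNA elements near genes such as Cyp1a1, Cyp1a2 and Cyp1b1, whose enzymes oxidise aromatic compounds, while the Ah receptor repressor competes for Arnt. Cyp1a2 is made in the unexposed liver, mainly by hepatocytes around the central vein, whereas Cyp1a1 is known as a gene with little expression until a ligand arrives. The Cyp3a enzymes oxidise steroids, bile acids and many drugs, and their genes answer to the nuclear receptors PXR (Nr1i2) and CAR (Nr1i3). Por hands electrons from NADPH to the microsomal P450 enzymes.

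Over all genes, 6091 of 18193 genes passed the test (limma, p adjusted by Benjamini-Hochberg over all genes, threshold 0.05), with 2926 higher (16.1%) and 3165 lower in tumours. Array medians lay between 6.22 and 6.27. The TrpnX control probe sets, which read a bacterial transcript and mark the background, lay between 3.69 and 4.36. Of the targeted genes, Rbl2 was 6.77 to 8.43 in the tumours and 9.44 to 10.02 in livers (-1.99, SE 0.30, adjusted p = 0.00126). Rb1 was 8.76 to 9.38 in the tumours and 7.69 to 8.33 in livers (1.05, SE 0.17, adjusted p = 0.0018), and Rbl1 differed by -0.18 (SE 0.26, adjusted p = 0.619). The sources used here do not name the deleted exons, and a probe set outside them would not check the labels. For the Actb control, log2 of the 3' signal over the 5' signal, which tracks how long the RNA was, stood at 0.61 ± 0.08 in the 5 tumours and 0.96 ± 0.04 in the 4 livers (mean ± SD), without overlap (exact two-sided permutation p = 0.00794, which is the minimum for 5 against 4 arrays, and 0.0159 adjusted over 2 controls). That call was lost without any 1 tumour (adjusted p = 0.0571), since fewer arrays raise the smallest p that the splits allow. The groups still did not overlap. The same ratio of the Gapdh control ran the other way, at -0.21 ± 0.03 in the 5 tumours and -0.28 ± 0.05 in the 4 livers (mean ± SD), and did not pass (exact p = 0.0635, also after adjustment), but did without liver 4 (adjusted p = 0.0179). All 18 hybridisation control probe sets and all 24 labelling control probe sets were also lower on every tumour array than on any liver array, by a median of 1.14 and 0.72 log2 units. The part of these array-wide differences in the results below was not tested.

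Of the 8 measured genes, 4 fell in tumours (Ahr, Cyp1a2, Cyp3a13 and Cyp3a25), 0 rose and 4 did not pass the test (Ahrr, Cyp1a1, Cyp1b1 and Cyp3a11), where 33.5% of all genes passed and 17.4% fell. Ahr and Cyp1a2 fell the most, by 3.99 and 5.34 log2 units. The same 4 genes had no overlap between the groups, which held for 29.8% of all genes in either direction and for 15.9% in the lower direction. The median difference of the 8 genes was -0.69, against -0.08 over all genes. Both Ahr and Cyp1a2 were lower by 3 or more log2 units, as were 84 genes in all (0.462%). In 7 of the 8 genes the SD was larger among tumours than among livers, against 58.0% of all genes.

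**Figure D1:**
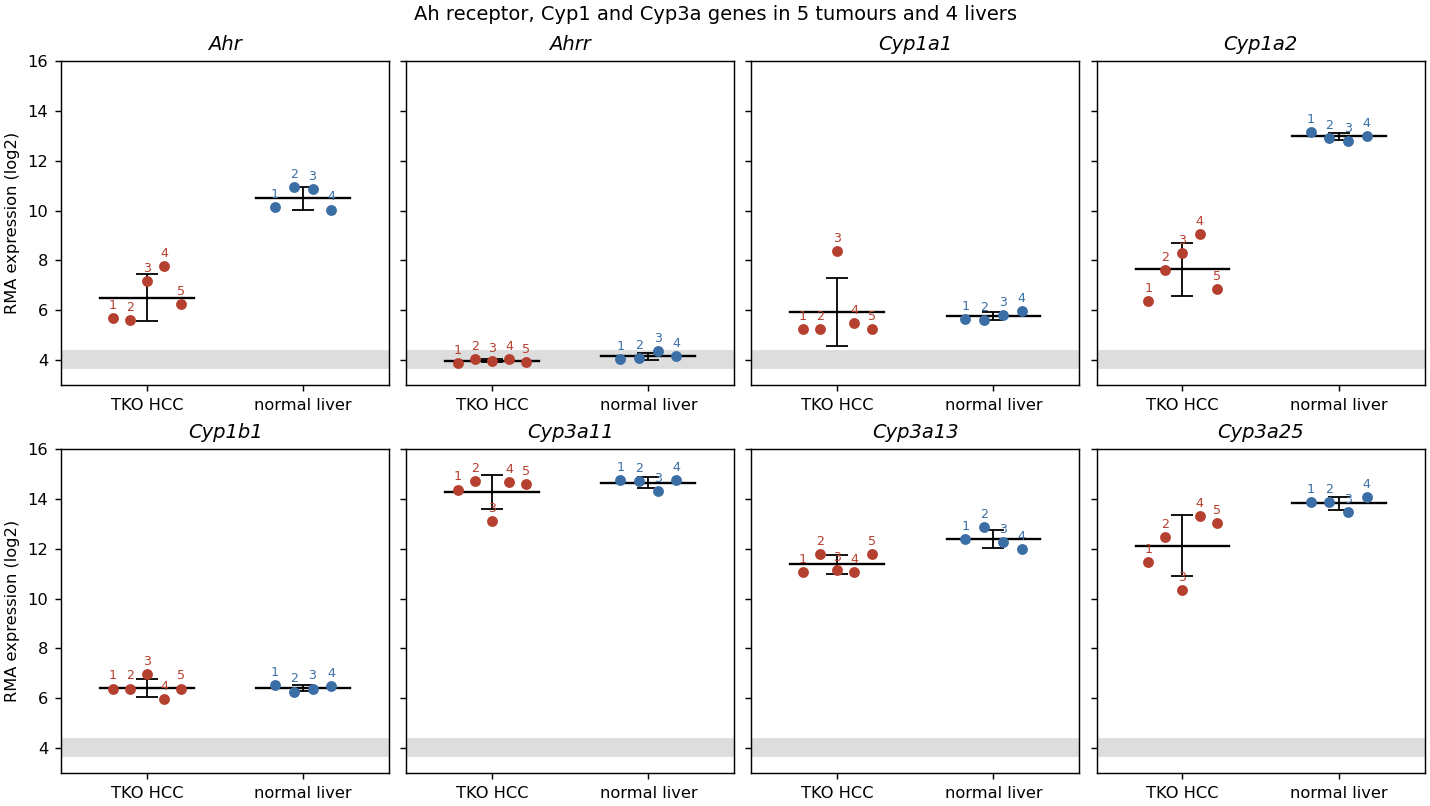
RMA expression (log2) of the 8 measured genes, with 1 numbered point per array for the 5 TKO tumours (left, red) and the 4 normal livers (right, blue). Horizontal lines are means, bars are SD and the grey band is the range of the TrpnX background controls. Ahr and Cyp1a2 lie lower in every tumour than in any liver, Ahrr lies in the background band in both groups, and tumour 3 is the high point of Cyp1a1 and the low point of Cyp3a11 and Cyp3a25.

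Ahr, the gene of the receptor itself, was 5.67, 5.61, 7.17, 7.77 and 6.26 in tumours 1 to 5, against 10.13, 10.93, 10.86 and 10.04 in livers 1 to 4. The highest tumour lay 2.27 log2 units below the lowest liver. Its means were 6.50 ± 0.95 in the 5 tumours and 10.49 ± 0.47 in the 4 livers (mean ± SD), a difference of -3.99 (SE 0.46, 95% interval -5.03 to -2.96, adjusted p = 0.000268), or 15.9-fold lower. Only 33 of the 18193 genes had a more negative difference. The other Ahr probe set was 5.84 to 6.58 in the tumours and 7.25 to 7.51 in livers and differed by -1.13 (SE 0.14, p adjusted over all probe sets 0.000517). Both probe sets placed the tumours below the livers without overlap, but the size of the difference depended on the probe set, 15.9-fold for one and 2.19-fold for the other. In tissue samples such as these, fewer cells of a type and less RNA per cell cannot be told apart.

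Ahrr, whose protein competes with the receptor for Arnt, was not measured above background. Its levels were 3.89 to 4.05 in the tumours and 4.03 to 4.34 in livers, all within the TrpnX range, and it differed by -0.18 (SE 0.08, adjusted p = 0.116). A change below that level could not be detected on these arrays.

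The other genes of the receptor complex did not share the difference of Ahr. Of the 5 measured genes of that list, Ahr and Ahrr included, 1 rose and 1 fell, with a median of -0.18. Over all genes 16.1% rose and 17.4% fell. Hsp90aa1, which encodes an Hsp90 chaperone, was 12.81 to 13.65 in the tumours and 12.13 to 12.67 in livers and rose by 0.85 (SE 0.19, adjusted p = 0.00798), although its other probe sets above background gave 0.97, -0.05 and 1.27. Arnt, the partner of the receptor in the nucleus, was 8.51, 10.96, 8.59, 8.58 and 8.83 in the tumours and 8.45 to 8.67 in livers (0.55, SE 0.47, adjusted p = 0.384). Tumour 2 alone stood apart from the other arrays for Arnt.

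Cyp1a2 and Cyp1a1 are neighbours on chromosome 9, with start sites 13958 bases apart and opposite strands. The 250 bases before each start site are shown because Cyp1a2 passed the test and Cyp1a1 did not. The windows are from the RefSeq promoter table of the GRCm38.p6 assembly, at chr9:57697363-57697612 (plus strand) for Cyp1a1 and chr9:57683656-57683905 (minus strand) for Cyp1a2, each written 5' to 3' along the gene. Capitals mark GCGTG, the core of the xenobiotic response element that the Ah receptor and Arnt bind, searched on both strands (as CACGC on the other).
Cyp1a1: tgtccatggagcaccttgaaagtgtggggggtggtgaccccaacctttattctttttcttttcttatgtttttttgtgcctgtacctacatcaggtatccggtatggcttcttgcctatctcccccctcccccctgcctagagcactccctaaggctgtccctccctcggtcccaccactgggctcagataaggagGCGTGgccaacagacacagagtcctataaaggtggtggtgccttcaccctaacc
Cyp1a2: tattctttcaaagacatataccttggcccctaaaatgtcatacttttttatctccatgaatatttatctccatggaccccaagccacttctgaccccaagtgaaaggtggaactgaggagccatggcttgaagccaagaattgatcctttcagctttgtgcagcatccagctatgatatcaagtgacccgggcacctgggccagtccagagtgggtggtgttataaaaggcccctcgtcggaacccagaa
The Cyp1a1 window holds 1 match, 54 to 50 bases before the start, and the Cyp1a2 window holds 0. A match was found in 28.2% of the 32851 windows of this length in the table, so it is frequent by its letters alone. The window of Cyp1b1 holds 1 match and those of Ahrr and Por hold 3 each. A match describes the letters only, and says nothing of binding in these samples.

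Cyp1a2, which oxidises caffeine and aromatic amines, had the largest difference of the 8 genes. It was 6.37, 7.62, 8.30, 9.04 and 6.85 in the tumours, against 13.17, 12.91, 12.80 and 13.01 in the livers. The livers lay within 0.36 log2 units of each other, the tumours were spread over 2.67, and the highest tumour was still far below the lowest liver. Cyp1a2 averaged 7.64 ± 1.08 in the 5 tumours and 12.97 ± 0.15 in the 4 livers (mean ± SD), a difference of -5.34 (SE 0.48, 95% interval -6.43 to -4.24, adjusted p = 6.27e-05), or 40.4-fold lower. Its difference was the tenth most negative of the 18193 genes.

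Cyp1a1, the gene whose window holds the match above, gave no such difference. Its values were 5.26, 5.23, 8.38, 5.49 and 5.26 in the tumours, against 5.63, 5.62, 5.79 and 5.96 in the livers. Those livers lay not far above the TrpnX background range, which reached 4.36. Cyp1a1 could therefore not have fallen as far as Cyp1a2. Tumour 3 was 2.89 log2 units above the next tumour, while the other 4 tumours all lay below the lowest liver. Over all arrays the difference was 0.18 (SE 0.61, 95% interval -1.21 to 1.56, adjusted p = 0.841). Without tumour 3 the sign turned and the test was passed, with a difference of -0.44 and an adjusted p of 0.0178.

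Cyp1b1, an enzyme of oestrogen and hydrocarbon oxidation found mainly outside hepatocytes, was 6.39, 6.39, 6.99, 5.98 and 6.39 in the tumours and 6.53, 6.27, 6.39 and 6.50 in the livers. The groups overlapped, with a difference of 0.00 (SE 0.18, 95% interval -0.39 to 0.40, adjusted p = 0.989). Tumour 3 was again the highest tumour. Its other probe sets gave -0.06, at a level in the background range, and -0.31 (SE 0.11), and neither passed over all probe sets (adjusted p = 0.58 and 0.0628).

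**Figure D2:**
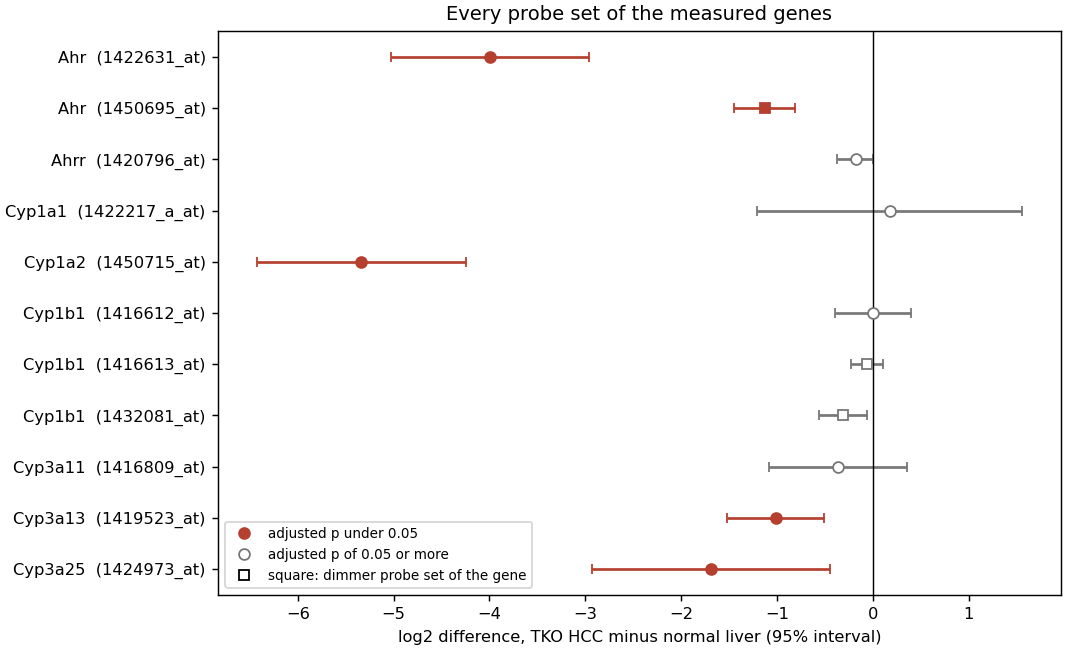
Log2 difference, TKO tumours minus normal livers, for each of the 11 probe sets (circles for the brightest probe set of a gene, squares for its dimmer ones), with 95% intervals. Filled red points passed at an adjusted p under 0.05 and open grey points did not. Both Ahr probe sets are left of 0, with differences of -3.99 and -1.13, and the 3 Cyp1b1 probe sets lie between -0.31 and 0.00.

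Differences between 2 genes on the same array do not change when an array is centred in another way, and 7 such pairs were compared between the groups by exact permutation over every split of the 9 arrays into 5 and 4, with p adjusted over the 7 pairs. Cyp1a2 minus Cyp1a1 was 1.71 ± 1.36 in the 5 tumours and 7.22 ± 0.25 in the 4 livers (mean ± SD), a shift of -5.51 without overlap (exact two-sided p = 0.00794, adjusted p = 0.0278). The neighbouring genes changed unequally, but Cyp1a1 had too little room above background to fall as far as Cyp1a2. Cyp1a2 minus Ahr was 1.14 ± 0.57 in the 5 tumours and 2.48 ± 0.60 in the 4 livers (mean ± SD), a shift of -1.34 with overlap that missed the threshold (exact p = 0.0317, adjusted p = 0.0556). With each gene taken as the mean of its probe sets, that shift was -2.77 and passed (adjusted p = 0.0185). Cyp1a1 minus Cyp1b1 was -0.50 ± 1.09 in the 5 tumours and -0.67 ± 0.16 in the 4 livers (mean ± SD), with an exact p of 0.96.

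The wider set of genes known to respond to the Ah receptor changed about as often as genes in general. Of 11 measured genes of that list, 2 rose, 2 fell and 7 did not pass, with a median of -0.10 against -0.08 over all genes. Over all genes 16.1% rose and 17.4% fell. For 2 of the 11, Ahrr among them, both group means lay in the background range, where a fall could not be detected. Cyp1a1 also had little room to fall. Besides Cyp1a2, the gene that fell was Slc46a3, a lysosomal transporter, at 7.12, 7.58, 7.96, 9.20 and 7.40 in the tumours and 9.41, 9.53, 10.06 and 10.60 in livers. All its tumours lay below all its livers (-2.05, SE 0.42, adjusted p = 0.00572). Without tumours 1 and 2 and liver 4, the 3 arrays with low Xist, its difference was -1.48 and the call was lost. Nfe2l2, which encodes the oxidative stress regulator Nrf2, rose by 1.08 (SE 0.25, adjusted p = 0.0112), though its other probe set gave -0.18. The other gene that rose was Lcn2, the lipocalin 2 gene, by 3.40 (SE 0.99, adjusted p = 0.0277), and it was named after its values were seen. Its level in livers ran between 6.85 and 12.60, and its call was lost without tumour 3, 4 or 5 or liver 1, with differences of 3.20 to 3.36. Tiparp, an enzyme that modifies the receptor, differed by -0.32 (SE 0.20, adjusted p = 0.232). Nqo1, a quinone reductase, was 8.88, 7.45, 11.43, 9.20 and 9.55 in the tumours and 7.45 to 9.01 in livers (0.96, SE 0.69, adjusted p = 0.298). The high Nqo1 array, tumour 3, was also the high array of Cyp1a1.

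Cyp3a11, Cyp3a25 and Cyp3a13 lie on chromosome 5, and their windows are shown because 2 of these relatives fell and 1 did not pass. They are at chr5:145879855-145880104, chr5:146009619-146009868 and chr5:137921620-137921869 of GRCm38.p6, all on the minus strand, from the same RefSeq table and written 5' to 3'. Capitals mark AGGTCA, the half-site that PXR, CAR and other nuclear receptors bind in pairs, and its reverse TGACCT.
Cyp3a11: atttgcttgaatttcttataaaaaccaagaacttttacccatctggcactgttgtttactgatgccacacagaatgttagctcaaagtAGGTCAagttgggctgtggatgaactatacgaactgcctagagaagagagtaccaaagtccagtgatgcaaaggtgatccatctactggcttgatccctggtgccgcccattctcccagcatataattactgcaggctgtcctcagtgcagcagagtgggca
Cyp3a25: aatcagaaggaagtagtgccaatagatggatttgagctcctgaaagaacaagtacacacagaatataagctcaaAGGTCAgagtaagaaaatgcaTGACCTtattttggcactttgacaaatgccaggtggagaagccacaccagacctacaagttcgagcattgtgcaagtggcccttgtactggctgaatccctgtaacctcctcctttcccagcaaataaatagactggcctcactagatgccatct
Cyp3a13: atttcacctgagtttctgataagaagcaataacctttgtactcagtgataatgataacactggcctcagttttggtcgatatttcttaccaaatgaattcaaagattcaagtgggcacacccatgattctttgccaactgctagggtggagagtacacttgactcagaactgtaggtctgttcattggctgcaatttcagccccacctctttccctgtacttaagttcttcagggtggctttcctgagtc
The Cyp3a11 window holds 1 half-site, 162 to 157 bases before the start. The Cyp3a25 window holds 2, at 176 to 171 and, on the opposite strand, at 155 to 150 bases, and the Cyp3a13 window holds 0. A half-site was found in 14.0% of the 32851 windows. The longest stretch that the Cyp3a11 and Cyp3a25 windows share is 10 bases, beginning 185 and 196 bases before their starts.

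Cyp3a11, the main Cyp3a enzyme of mouse liver and a classic PXR target, was 14.38, 14.72, 13.10, 14.69 and 14.60 in the tumours, against 14.77, 14.74, 14.32 and 14.78 in the livers. Tumour 3 was 1.28 log2 units below the next tumour, and the other 4 tumours lay within the range of the livers. The difference was -0.36 (SE 0.32, 95% interval -1.08 to 0.36, adjusted p = 0.405). Without tumour 3 it was -0.06. The gene lies near the top of the scale, higher than 99.8% of genes by its mean over all arrays, where RMA values can compress a change.

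Cyp3a25 was 11.48, 12.46, 10.36, 13.31 and 13.05 in the tumours and 13.89, 13.86, 13.46 and 14.07 in the livers. The groups did not overlap, though the highest tumour was only 0.15 log2 units below the lowest liver, and tumour 3 was the lowest array by 1.13. It averaged 12.13 ± 1.22 in the 5 tumours and 13.82 ± 0.25 in the 4 livers (mean ± SD) and fell by 1.69 (SE 0.55, 95% interval -2.93 to -0.45, adjusted p = 0.0418), or 3.22-fold. That call did not outlast the removal of tumour 1 (-1.53), liver 1 (-1.66), liver 2 (-1.67), liver 3 (-1.81) or liver 4 (-1.61), with adjusted p-values of 0.0677 to 0.0927.

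Cyp3a13, a Cyp3a form also known from the intestine, was 11.08, 11.78, 11.14, 11.06 and 11.79 in the tumours and 12.38, 12.88, 12.28 and 12.00 in the livers. Every tumour was below every liver, the closest by 0.22 log2 units. It fell by 1.01 (SE 0.23, 95% interval -1.52 to -0.51, adjusted p = 0.00839), or 2.02-fold, and its SD among tumours, 0.38, was the smallest of the 3 listed Cyp3a genes. When the arrays were centred on the median level of 11 housekeeping genes, the median difference of all genes rose to 0.48. That scale is itself uncertain, as described in the section on processing. On it Cyp3a13 was at -0.45 and Cyp3a25 at -1.12 without a call, and the sign of Cyp3a11 turned to 0.21.

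Within arrays, Cyp3a11 minus Cyp3a25 was 2.90, 2.26, 2.74, 1.38 and 1.54 in tumours, against 0.88, 0.88, 0.85 and 0.71 in livers. All tumours lay above all livers, with a shift of 1.33 (exact two-sided p = 0.0238), but the p adjusted over the 7 pairs was 0.0556. Cyp3a11 minus Cyp3a13 shifted by 0.66 (exact p = 0.111, adjusted p = 0.156) and Cyp3a25 minus Cyp3a13 by -0.67 (exact p = 0.31, adjusted p = 0.361), both with overlap. Cyp1a2 minus Cyp3a11 was -6.66 ± 1.39 in the 5 tumours and -1.68 ± 0.14 in the 4 livers (mean ± SD), a shift of -4.98 without overlap (exact p = 0.00794, adjusted p = 0.0278). The calls of Cyp1a2 minus Cyp1a1 and Cyp1a2 minus Cyp3a11 were lost without any 1 array (adjusted p of 0.05 to 0.0667), since fewer arrays raise the smallest p that the splits allow. The pair of Cyp3a11 and Por could not be formed.

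**Figure D3:**
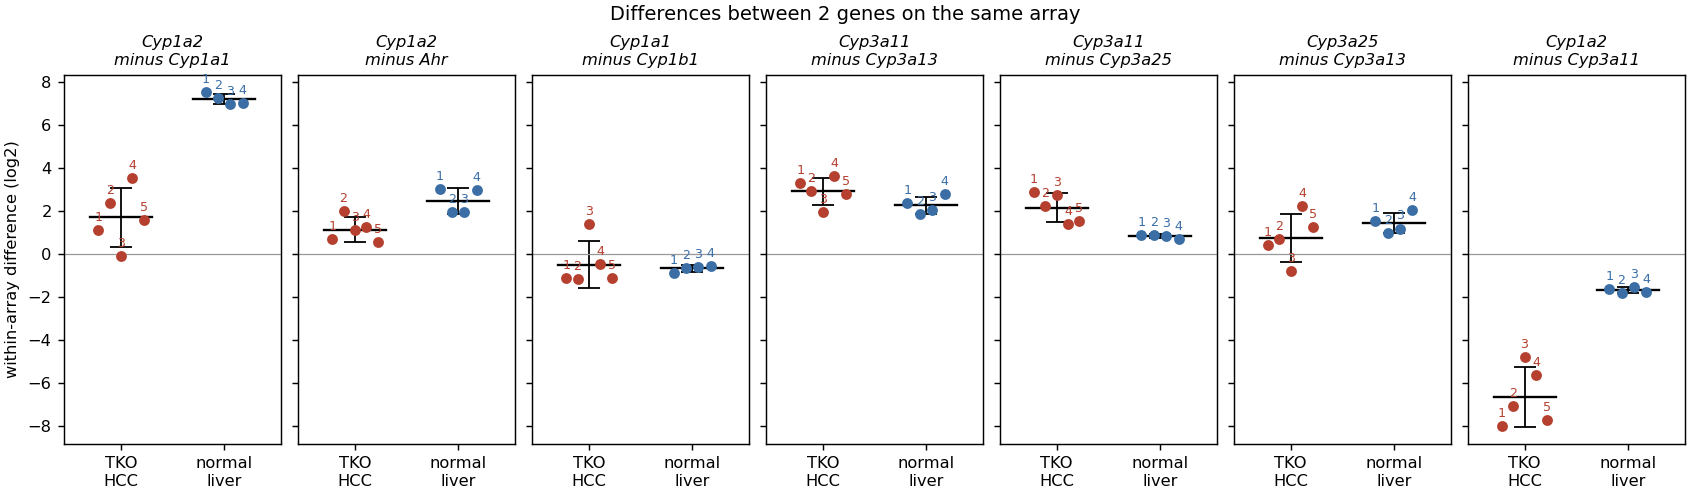
Within-array log2 difference between 2 genes, 1 panel per pair, with 1 numbered point per array for the 5 TKO tumours (left) and the 4 normal livers (right), the mean as a line and the SD as a bar. Cyp1a2 minus Cyp1a1 and Cyp1a2 minus Cyp3a11 lie lower in every tumour than in any liver, by 5.51 and 4.98 on average, and Cyp3a11 minus Cyp3a25 lies higher by 1.33.

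The probe sets of other Cyp3a genes divided the livers as well as the groups. Tumours 1 and 2 had levels of 6.34 and 6.39 for Xist, the RNA made by the inactive X chromosome, and liver 4 had 6.66, whereas all remaining arrays lay at 12.68 to 13.55. A probe set shared by Cyp3a41a and Cyp3a41b, forms known as female-predominant in adult mouse liver, was 7.66 to 9.64 in the 5 tumours, against 14.29, 14.52, 14.60 and 8.04 in livers. Liver 4, the liver with low Xist, lay among the tumours. Cyp3a44, likewise female-predominant, was 4.94 to 5.10 in the tumours and 6.45, 7.80, 8.96 and 5.30 in livers, and Cyp3a16 was 3.45 to 4.02 in tumours, within or below the background range, and 7.34, 9.33, 10.64 and 3.90 in livers.

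Over all 9 arrays Cyp3a16 fell by 4.07 (SE 1.13, adjusted p = 0.0225), Cyp3a44 by 2.11 (SE 0.61, adjusted p = 0.027) and the Cyp3a41 probe set by 4.36 (SE 1.27, p adjusted over all probe sets 0.0311). The Cyp3a16 call was lost without liver 2 (-3.56) or liver 3 (-3.12), and the Cyp3a44 call without tumour 1 (-2.10), tumour 5 (-2.13) or liver 2 (-1.89). Among the 3 tumours and 3 livers with high Xist, the differences were larger, at -5.24 for Cyp3a16, -2.68 for Cyp3a44 and -6.07 for the Cyp3a41 probe set. In the same arrays Cyp3a11 differed by -0.48, Cyp3a13 by -1.18 and Cyp3a25 by -1.50, the last with an adjusted p of 0.183. The Cyp3a41 probe set averaged 8.41 in the 3 tumours with high Xist and 8.65 in the 2 with low Xist. Counting the listed genes, 4 of the 5 Cyp3a genes with a probe set of their own fell and 0 rose, with a median of -1.69. Over all genes 17.4% fell. Of those 4 calls, the ones of Cyp3a16, Cyp3a44 and Cyp3a25 were each lost when certain single arrays were left out.

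**Figure D4:**
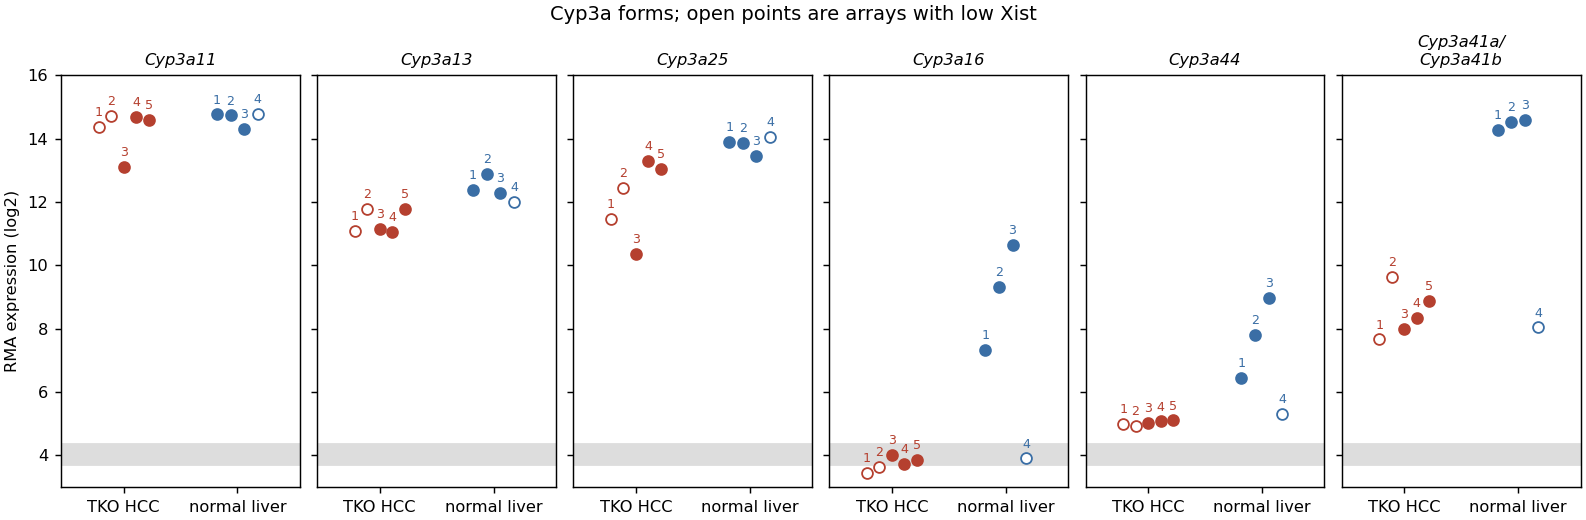
RMA expression (log2) of 6 Cyp3a probe sets in the 5 TKO tumours (left, red) and the 4 normal livers (right, blue), with 1 numbered point per array, open where Xist was low. The grey band is the TrpnX background range. Cyp3a16, Cyp3a44 and the Cyp3a41 probe set are high in livers 1 to 3 and low in liver 4 and in every tumour, whereas Cyp3a11 is between 13.10 and 14.78 on all arrays.

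Among 14 measured regulators of Cyp3a genes, 3 rose, 1 fell and 10 did not pass, with a median of 0.38. Over all genes 33.5% passed, so this count does not set the regulators apart. The gene that fell was Nr1i3, which encodes CAR, the receptor behind the response to phenobarbital. It was 6.34, 7.36, 7.82, 7.87 and 9.05 in the tumours and 11.13, 10.61, 10.83 and 10.78 in livers. Every tumour lay below every liver, the closest by 1.56 log2 units (-3.15, SE 0.44, adjusted p = 0.000839). Nr1i2, which encodes PXR, was 8.52 to 10.49 in the tumours and 8.42 to 9.77 in livers and differed by 0.49 (SE 0.42, adjusted p = 0.383). Hnf4a, a factor that hepatocytes use broadly, differed by 0.20 (SE 0.17, adjusted p = 0.365). Cebpb, a liver and acute-phase factor, rose by 0.46 (SE 0.11, adjusted p = 0.0116). The other genes that rose were Foxa1, a pioneer factor, by 0.73 (adjusted p = 0.0255), and the coactivator gene Ncoa1, by 0.38 (adjusted p = 0.0359). Foxa1 did not pass without tumour 1 or without liver 1, 2 or 3 (0.59 to 0.72), nor Ncoa1 without tumour 1, 4 or 5 or liver 1, 2 or 3 (0.33 to 0.38). Centred on the 75th percentile of each array, Cebpb (0.28) and Ncoa1 (0.20) did not pass.

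The partners of P450 enzymes were measured without Por. Of 5 measured genes, 3 fell and 1 rose, with a median of -0.62, where 17.4% of all genes fell and 16.1% rose. Cyb5a, the cytochrome b5 that passes electrons to some P450 enzymes, fell by 0.62 (SE 0.12, adjusted p = 0.00376), and Pgrmc1, a haem-binding membrane protein, by 0.83 (SE 0.16, adjusted p = 0.00485). Cyb5r3, the reductase of cytochrome b5, rose by 0.83 (SE 0.14, adjusted p = 0.00209), read by a probe set that can cross-hybridise. Its other probe sets above background gave 0.80, 0.91 and -0.15. Cyb5b, the third that fell, was at -1.09 (adjusted p = 0.0396), and its call was lost without any one of the arrays except tumour 2 (-0.89 to -1.18). The other Cyb5b probe sets gave -0.84 and -0.46, and neither passed over all probe sets. Centred on housekeeping genes, Cyb5a (-0.05), Pgrmc1 (-0.26) and Cyb5b (-0.52) did not pass.

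Haem, the prosthetic group of every P450, has its own synthesis genes. Of 11 measured genes of haem synthesis and breakdown, 4 fell, 2 rose and 5 did not pass, with a median of -0.28. Over all genes 17.4% fell and 16.1% rose. Alas1, the rate-limiting enzyme, was 11.43, 11.80, 10.73, 11.66 and 11.53 in the tumours and 11.89, 12.10, 13.03 and 13.27 in livers, and fell by 1.15 (SE 0.32, adjusted p = 0.024). That call was lost without liver 3 (-0.99) or liver 4 (-0.91), and without the 3 low-Xist arrays (-1.04). Uros and Urod, which act later in the pathway, fell by 0.65 (SE 0.13, adjusted p = 0.00503) and 0.73 (SE 0.12, adjusted p = 0.00194). The other probe set above background gave only -0.10 for Uros and -0.65 for Urod. Ppox, the oxidase of the last steps, rose by 0.95 (SE 0.19, adjusted p = 0.0044), while its other probe sets gave -0.02 and 0.11. The remaining calls, named after their values were seen, were Fech, which inserts the iron, at -0.47 (adjusted p = 0.036) and the biliverdin reductase gene Blvra at 0.41 (adjusted p = 0.0336). Both calls were lost without tumour 1, 3 or 5 or liver 1, 2 or 4, that of Blvra also without tumour 4 (-0.45 to -0.41 for Fech and 0.36 to 0.43 for Blvra). Centred on housekeeping genes, Alas1 (-0.58), Uros (-0.09) and Urod (-0.17) did not pass and the sign of Fech turned (0.0973), and centred on the 75th percentile Blvra (0.23) did not pass.

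Ahr and Cyp1a2 fell, as did most genes of hepatocytes around the central vein. Of 14 measured central-vein genes, Cyp1a2 included, 13 fell and 0 rose, with a median of -3.59. Over all genes 16.1% rose and 17.4% fell. Slc1a2, a glutamate transporter, fell by 5.26 (SE 0.28, adjusted p = 1.72e-06), Lect2, a secreted protein, by 5.51 (SE 0.38, adjusted p = 1.11e-05) and Tbx3, a transcription factor, fell by 3.23 (SE 0.19, adjusted p = 3.24e-06). The other probe sets above background gave -0.39, -1.96, -4.04 and -0.34 for Slc1a2 and -3.60, -0.31 and -0.56 for Tbx3. The size of both falls thus depended on the probe set. The mean level of the list was 7.61 to 9.36 on tumour arrays and 11.81 to 12.04 on liver arrays. Among the tumours the list did not follow Ahr throughout. Tumour 2 had the lowest Ahr (5.61) but a list mean of 8.74, below only that of tumour 4. Of 9 genes of hepatocytes around the portal vein, 2 rose and 1 fell, with a median of -0.10. Hsd17b13, a lipid droplet enzyme, rose by 1.31 (SE 0.13, adjusted p = 0.00012), though its other probe set gave -0.04. Aldh1b1, a mitochondrial aldehyde dehydrogenase, rose by 1.70 (SE 0.36, adjusted p = 0.00677), and Pck1, a gluconeogenic enzyme, fell by 4.52 (SE 1.05, adjusted p = 0.0105). The 7 broad hepatocyte markers, with Alb at their head, had a mean level of 14.85 to 15.04 in the tumours and 14.89 to 15.11 in livers, near the top of the scale, and 1 of them rose and 1 fell.

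**Figure D5:**
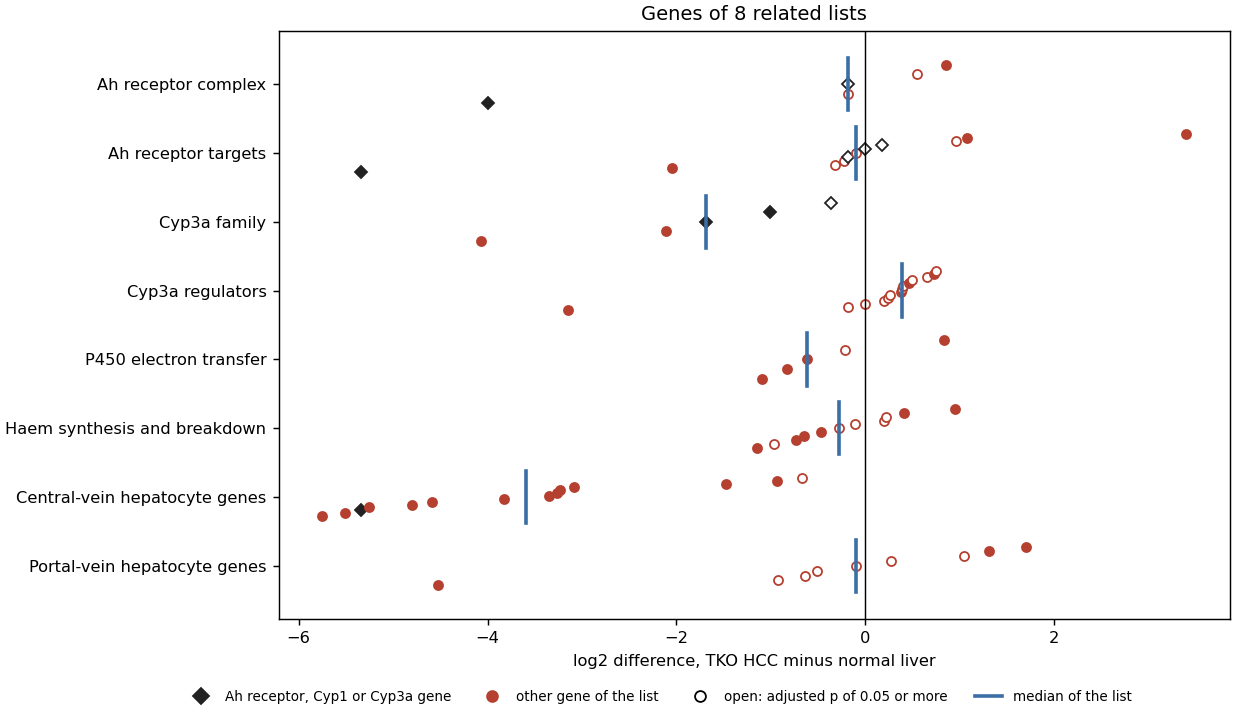
Log2 difference, TKO tumours minus normal livers, of each measured gene of 8 related lists, 1 point per gene (black diamonds are Ahr, Ahrr, Cyp1 or Cyp3a genes, red circles are other genes, and open points have an adjusted p of 0.05 or more), with the median of each list as a blue line. The central-vein genes lie lowest, with a median of -3.59, and the Ah receptor targets are spread around a median of -0.10.

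By Pearson correlation over the 9 arrays, among 15327 genes above background, the genes most like Ahr were Lhpp (r = 0.983), Cldn2 (0.982) and Oat (0.981). Lhpp and Oat belong to the central-vein list, and Cldn2 encodes a tight junction protein. The genes most like Cyp1a2 were Mybphl (0.995), Lect2 (0.992) and Glul (0.989), of which Glul, the glutamine synthetase gene, and Lect2 belong to the same list. Mybphl had far smaller differences, with means of 5.94 in the tumours and 6.30 in livers. These values rest on 9 arrays in 2 groups and mostly follow the group difference. After the group means were taken out, on the same 9 arrays that chose these genes and so partly set by that choice, r was 0.855, 0.892 and 0.814 for the genes beside Ahr and 0.922, 0.879 and 0.854 for those beside Cyp1a2. Cyp3a11, whose groups overlapped, was most like Ces2a (0.950), Sdc4 (0.944) and Abcb11 (0.943), a carboxylesterase, a syndecan and the bile salt export pump. All 3 were lowest in tumour 3, at 9.77, 10.20 and 8.69.

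The tumours differed among themselves in 2 recurring ways. Tumour 4 was the highest tumour for Ahr, Cyp1a2 and Cyp3a25, and it also had the highest mean level of central-vein genes (9.36) and of portal-vein genes (12.82). Its mean level of Kupffer cell and macrophage markers was the highest of the tumours too, at 9.74, against 7.37 to 9.20 in the others. Not every single marker of that list was highest in tumour 4. Tumour 3 was the highest tumour for Cyp1a1 and Cyp1b1 and the lowest for Cyp3a11 and Cyp3a25. It also had the highest mean level of the 10 stellate cell and fibroblast markers, at 9.80, against 8.14 to 9.22 in the other tumours and 8.78 to 9.36 in the livers. Col1a1, a collagen gene of that list, was 10.33 in tumour 3, 7.63 to 8.21 in the other tumours and 5.71 to 6.69 in the livers. The mean levels of bile duct markers (7.70) and leukocyte markers (6.87) in tumour 3 were also the highest of the tumours, against 6.48 to 7.62 and 5.90 to 6.81 in the others. Those 2 leads were small, and not every bile duct marker was highest in tumour 3. The part of these markers in the values of tumours 3 and 4 was not tested.

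Endothelial and Kupffer cell markers moved only in part with the group difference. Over all genes 17.4% fell and 16.1% rose. Of 9 endothelial markers 5 fell, 0 rose and 4 did not pass. Their mean level was 6.51 to 7.87 in the tumours and 8.29 to 8.85 in livers. Pecam1, at the head of that list, differed by 0.40 (SE 0.30, adjusted p = 0.318). Centred on housekeeping genes, Pecam1 was at 0.96 and passed (adjusted p = 0.00756). Of 8 Kupffer cell and macrophage markers 4 fell, 0 rose and 4 did not pass. Their mean level overlapped, at 7.37 to 9.74 in the tumours and 9.49 to 10.57 in livers. Clec4f, which marks Kupffer cells, fell by 3.51 (SE 0.57, adjusted p = 0.00179), and Clec4g, a lectin of liver sinusoidal endothelium, by 4.08 (SE 0.62, adjusted p = 0.00128). The other Clec4g probe set gave -0.26 and did not pass (p adjusted over all probe sets 0.206). Among the stellate cell and fibroblast markers 2 rose and 3 fell, among 5 bile duct markers 1 rose and 1 fell, and among 8 leukocyte markers 1 fell. The stellate cell call of Lrat was lost without liver 3 (-1.68). The bile duct calls were Sox9 (1.32) and Krt7 (-0.29), and the leukocyte call was Ms4a1 (-1.12). The Sox9 call was lost without tumour 1, 3 or 5 or liver 1 or 3, the Krt7 call without any 1 array except liver 1, and the Ms4a1 call without any 1 array except tumour 4 or liver 4. Centred on housekeeping genes, Krt7 changed sign (0.28) and Ms4a1 (-0.55) did not pass. Bile duct markers had a mean level of 6.48 to 7.70 in the tumours and 6.36 to 6.88 in livers. Leukocyte markers were at 5.90 to 6.87 in the tumours and 6.22 to 7.31 in livers. None of these marker lists was at background in either group, and their part in the differences of Ahr, Cyp1a2 and the Cyp3a genes was not tested.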

How the data were processed

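Samples were grouped by title. The authors deposited log2 expression values for 45101 probe sets, which per the submitters' processing notes are RMA values; no version or setting of RMA is named in the sources used here. RMA as commonly run equalises the arrays' distributions, which can hide a general shift, and compresses differences near background and near the top of the scale. No scan batch was given; precision is bounded by how few arrays there are.

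The platform annotation named 1 gene for 34945 probe sets, several for 932 and none for 9160, with 64 controls left out. By gene identifier 34741 were found in the RefSeq table of GRCm38.p6 and 0 symbols changed. The probe set of a gene with the largest mean over the 9 arrays was used, without a filter on dim ones. Beside Cyb5r3, the probe sets used for Urod, Fech, Arnt, Tiparp and Hnf4a are of a type that can cross-hybridise. The test was limma 3.58.1 (lmFit with eBayes, two-sided, without covariates) in R 4.3.3, with Benjamini-Hochberg adjustment over 18193 genes; other probe sets come from the same fit over all probe sets. Beside the listed genes, the text names up to 3 genes per list with the smallest adjusted p in its main direction and 1 in the other, the first of each marker list, and the 3 most correlated with Ahr, Cyp1a2 and Cyp3a11; Arnt, Tiparp, Nqo1, Lcn2, Nr1i2, Hnf4a, Fech and Blvra came in once their values had been seen. The listed genes and all lists were chosen with earlier results of these data known.

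On simulated data the gene test recovered 29.9% of 67 genes changed by 0.5, 68.7% of 67 changed by 1 and 92.4% of 66 changed by 2 log2 units, with 7 other genes called. The simulation changed only these genes and drew all values independently, whereas 33.5% of all genes passed in the data. It therefore does not give the power or the error of this comparison. No array was a copy of another, since the root mean square difference was 0.311 log2 units or more for every pair. RefSeq promoter letters were found for 8 of the 9 genes, all but Ahr. The remaining steps used Python 3.11.15 with pandas 2.3.3, numpy 2.4.6 and matplotlib 3.10.9. Alternatives were 2 other scalings, the mean of probe sets, a filter on dim probe sets, a variance trend, the replicate number as a block, each array left out, and the 3 arrays with low Xist left out.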

Additional observations from a re-analysis of the deposited data

Results flagged for a closer look

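In groups of 4 or 5 arrays, the gap between the most extreme array and its nearest neighbour was divided by the range of the group and set against Dixon's critical value. Of 154 groups checked 13 exceeded it, and chance gives about 1 in 20.

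Among the listed genes, tumour 3 stood apart for Cyp1a1 as the highest tumour (0.918) and for Cyp3a11 as the lowest (0.791), and Cyp1a1 minus Cyp1b1 was highest in it too (0.736). Liver 3 was the low array for Cyp3a11 among livers (0.917), at 14.32 against 14.74 to 14.78 in the others. Liver 4 was the low array for Cyp3a11 minus Cyp3a25 (0.84), at 0.71 against 0.85 to 0.88.

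Among related genes, the highest tumour stood apart for Col1a1 (0.786), Slc1a2 (0.884) and Arnt (0.867, tumour 2). The lowest liver stood apart for Ppox (0.941), Alb (0.938), Marco (0.864) and Ptprc (0.87), and the highest liver for Reln (0.947).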

How the results depend on the processing

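The 2 other scalings moved the whole distribution. Centred on 11 housekeeping genes, 9406 genes passed (93.6% of them higher) and the median over all genes was 0.48, and centred on the 75th percentile 10346 passed (22.3% higher) with a median of -0.26, against 48% higher and a median of -0.08 as reported. The housekeeping scale is uncertain. Of those 11 genes 7 rose, with a median of 0.59 over the list. Their median level per array lay lower in tumours, at 11.92 to 12.51, than in livers, at 12.72 to 12.92. The gene in the middle was not the same on all arrays. The shift of -0.56 in that level therefore depends on which gene was in the middle. Calls lost and signs turned on this scale are hard to read for that reason. Under housekeeping centring Ahrr was at 0.38, Cyp1b1 at 0.57 with an adjusted p of 0.017, Cyp3a11 at 0.21, and Cyp3a13 (-0.45) and Cyp3a25 (-1.12) did not pass. With the 75th percentile Ahrr was at -0.36 and passed, Cyp1a1 at -0.00538 and Cyp1b1 at -0.18. As the mean of its probe sets Cyp1b1 was at -0.12, Cyp1a2 minus Ahr at -2.77 (adjusted p = 0.0185) and Cyp3a11 minus Cyp3a25, genes of 1 probe set each, stayed at 1.33, its adjusted p of 0.0417 coming from the adjustment over the 7 pairs.

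Of the 8 genes, 3 to 5 passed under these settings, against 4 as reported, and Ahr and Cyp1a2 fell in each. Leaving out 1 array gave 4632 to 6361 genes past the threshold, 3 to 5 of them listed. Differences then ran from -0.22 to -0.12 for Ahrr, -0.44 to 0.35 for Cyp1a1, -0.14 to 0.12 for Cyp1b1, -0.47 to -0.06 for Cyp3a11 and -1.98 to -1.25 for Cyp3a25. Without the 3 arrays with low Xist, Cyp3a25 was at -1.50 and did not pass. The pairs ran from -5.97 to -5.06 (Cyp1a2 minus Cyp1a1), -1.56 to -1.16 (Cyp1a2 minus Ahr), -0.30 to 0.33 (Cyp1a1 minus Cyp1b1), 0.48 to 0.90 (Cyp3a11 minus Cyp3a13), 1.15 to 1.53 (Cyp3a11 minus Cyp3a25), -1.04 to -0.29 (Cyp3a25 minus Cyp3a13) and -5.44 to -4.64 (Cyp1a2 minus Cyp3a11), with none past the threshold. For the 2 pairs that passed on 9 arrays, this is because fewer arrays raise the smallest p that the splits allow. The Actb ratio ran from -0.39 to -0.34 and the Gapdh ratio from 0.05 to 0.09. The first lost its call without any 1 tumour (adjusted p = 0.0571), again through the smallest p that the splits allow. The second gained a call without liver 4 (adjusted p = 0.0179). Among the 57 other named genes, 27 kept their direction and call under every setting. Alb (-0.0957) changed sign with the 75th percentile, and Krt7 (0.28), Krt19 (0.30), Ptprc (0.21), Tiparp (0.25), Fech (0.0973) and Rbl1 (0.38) did so with housekeeping centring. Leaving out 1 array, Rbl1 ran from -0.42 to 0.12.

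With the replicate number as a block, 3552 genes passed, 4 of them listed. The labels state no pairing by number, and tumour 5 has no partner. The correlations of same-numbered deviations were -0.129, -0.0668, 0.18 and -0.121. They were not set against differently numbered samples, and so cannot exclude a shared animal or batch. The pair of Cyp3a11 and Por was not run. Results on the housekeeping scale carry the shift of that scale described above. Otherwise, where a result changed with the scaling, or Cyp1b1 or Cyp1a2 minus Ahr with the probe sets, the cause was not tested.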
